A study of Mus musculus with 3 samples.

Results

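The interferon-stimulated genes of the mouse liver were followed through its cell classes after irreversible electroporation (IRE), in which electric pulses permeabilise cell membranes and kill cells at a defined site. The set is a list of 35 genes given by symbol, and all 35 were found among the 19091 genes of the count tables. Cells were profiled by Drop-seq, in which a cell shares a droplet with a barcoded bead and each captured transcript is counted once by its unique molecular identifier (UMI). All mice were adult C57BL/6, with no further age or allele in the labels. Control mice had sham surgery and were sacrificed after 1 day, and the other groups were sacrificed 1 day or 7 days after IRE. IRE consisted of 8 pulses of 50 ms at 75 V, 1 s apart, between electrodes above and below 1 liver lobe, as the labels have it, while the study's methods give a different voltage. A 4 mm punch of that area, or of the matching uninjured area in controls, was digested with enzymes and freed of red blood cells. Each library pooled 3 livers per the study's methods, so the animals cannot be told apart, there is 1 library per group, and no difference between groups has a replicate check or a test. No sham library was taken at 7 days, so IRE and time since surgery cannot be told apart there.

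Type I interferons bind a receptor found on most cells and activate the kinases Jak1 and Tyk2, which phosphorylate transcription factors such as Stat2. With Irf9, Stat2 takes part in a complex that binds interferon-stimulated response elements in promoters. The induced proteins block viral replication, sense nucleic acids and restrain the response itself, and liver macrophages, endothelium and infiltrating leukocytes are all able to respond.

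The response element is shown first because it links many members and was no part of the rule that chose them. RefSeq promoters (GRCm38.p6, from 250 bases before to 50 after a transcription start) were found for 25 of the 35 members. The core of the element was searched on both strands as GAAA, any 2 bases, GAAA, with overlapping matches allowed. It was present in 14 of the 25 members (56.0%) and in 3.99% of 27025 genes with promoters of that length. TTCNNNGAA, the motif bound by Stat dimers, was present in 4 of the 25 (Ifit2, Isg20, Oas1a and Bst2; 16.0%) and in 9.55% of all genes. The 160 bases before the start are printed for 4 members with a match to the core and for Slfn1, which had a large difference at 7 days and no match, and capitals mark the matches. They lie at chr4:156200819-156200978 (minus strand) for Isg15, chr19:34640729-34640888 (plus) for Ifit1, chr19:34583369-34583528 (plus) for Ifit3, chr12:26456453-26456612 (minus) for Rsad2 and chr11:83116660-83116819 (plus) for Slfn1.
Isg15: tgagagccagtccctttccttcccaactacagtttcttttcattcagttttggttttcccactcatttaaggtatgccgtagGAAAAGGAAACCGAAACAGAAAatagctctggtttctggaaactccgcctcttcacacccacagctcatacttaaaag
Ifit1: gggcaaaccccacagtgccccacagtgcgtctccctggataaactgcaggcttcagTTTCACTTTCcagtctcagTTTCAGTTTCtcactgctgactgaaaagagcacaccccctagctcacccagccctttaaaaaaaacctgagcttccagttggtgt
Ifit3: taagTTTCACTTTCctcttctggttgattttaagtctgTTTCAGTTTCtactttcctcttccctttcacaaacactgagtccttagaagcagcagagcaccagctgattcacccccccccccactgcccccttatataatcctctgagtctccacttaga
Rsad2: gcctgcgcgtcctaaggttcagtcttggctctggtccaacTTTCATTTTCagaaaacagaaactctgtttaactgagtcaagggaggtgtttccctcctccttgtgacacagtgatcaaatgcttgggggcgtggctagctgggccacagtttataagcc
Slfn1: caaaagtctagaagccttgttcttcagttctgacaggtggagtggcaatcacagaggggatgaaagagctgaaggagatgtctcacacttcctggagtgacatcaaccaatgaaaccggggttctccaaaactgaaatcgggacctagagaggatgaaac
Isg15 held 3 overlapping matches that ended between 56 and 68 bases before the start. The 2 matches of Ifit1 ended 75 and 94 bases before it, the 2 of Ifit3 ended 112 and 146 bases before it, and the 1 of Rsad2 ended 110 bases before it. The ratio of the 7-day to the control level, described next, had a median of 1.84 over the 14 members with a match and 2.77 over the 11 without one, and the ranges of both sets overlapped.

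Barcodes with at least 200 genes were taken as cells, 10386, 9253 and 5624 in the control, 1-day and 7-day libraries, with 8013800, 6107866 and 3058967 UMIs and a median of 595, 509 and 456.5 UMIs per cell. The labels put the input at an estimated 1000 cells a library, fewer than these barcodes, so some may hold free RNA, whose part in the levels and shares of cells was not tested. Barcodes with under 200 genes held the 35 genes together at 2916, 3256 and 8975 UMIs per 1000000. In the same order, mitochondrial transcripts took 20.5%, 21.7% and 4.10% of the UMIs, neutrophil markers 0.390%, 0.0646% and 4.18%, and hepatocyte genes 0.196%, 3.18% and 0.0411%, so the tables hold few hepatocyte transcripts for a sample labelled liver cells. At least 2 markers of a second cell class were found in 23.8%, 24.3% and 69.5% of cells. Between 44 and 149 cell barcodes were shared by any pair of libraries. Levels are UMIs per 1000000 UMIs (UPM) of the cells concerned. Values in brackets after a level, ratio or share are 95% intervals, which reflect counting error alone.

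The summed level of the 35 genes was 4408 UPM (4362 to 4454) in control, 4147 (4096 to 4198) at 1 day and 9937 (9826 to 10049) at 7 days post-injury (p.i.). The 7-day library was thus the high one, at 2.25 (2.22 to 2.29) times control, while the 1-day library was at 0.941 (0.926 to 0.956) times. The 1-day interval included 1 with cells of at most 20% mitochondrial UMIs (0.986, 0.965 to 1.01), without mitochondrial and hepatocyte genes (0.994, 0.978 to 1.01) and without Ifi27l2a and Ifi203 (0.985, 0.967 to 1.00). In summed cells, fewer cells of a type and less RNA per cell cannot be told apart. At 7 days p.i. 20 of 35 members were at least 2-fold higher than control, against 8.79% of all genes with at least 20 UMIs, and 0 were at least 2-fold lower, against 26.3%. The median log2 ratio was 1.09 over members and -0.29 over all genes. Leaving mitochondrial transcripts out of the total moved every log2 ratio by -0.27, and 16 members were then 2-fold higher, against 6.22% of all genes. Irf7, Ifi205, Oas2 and Dhx58 were the ones no longer past 2-fold.

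**Figure D1:**
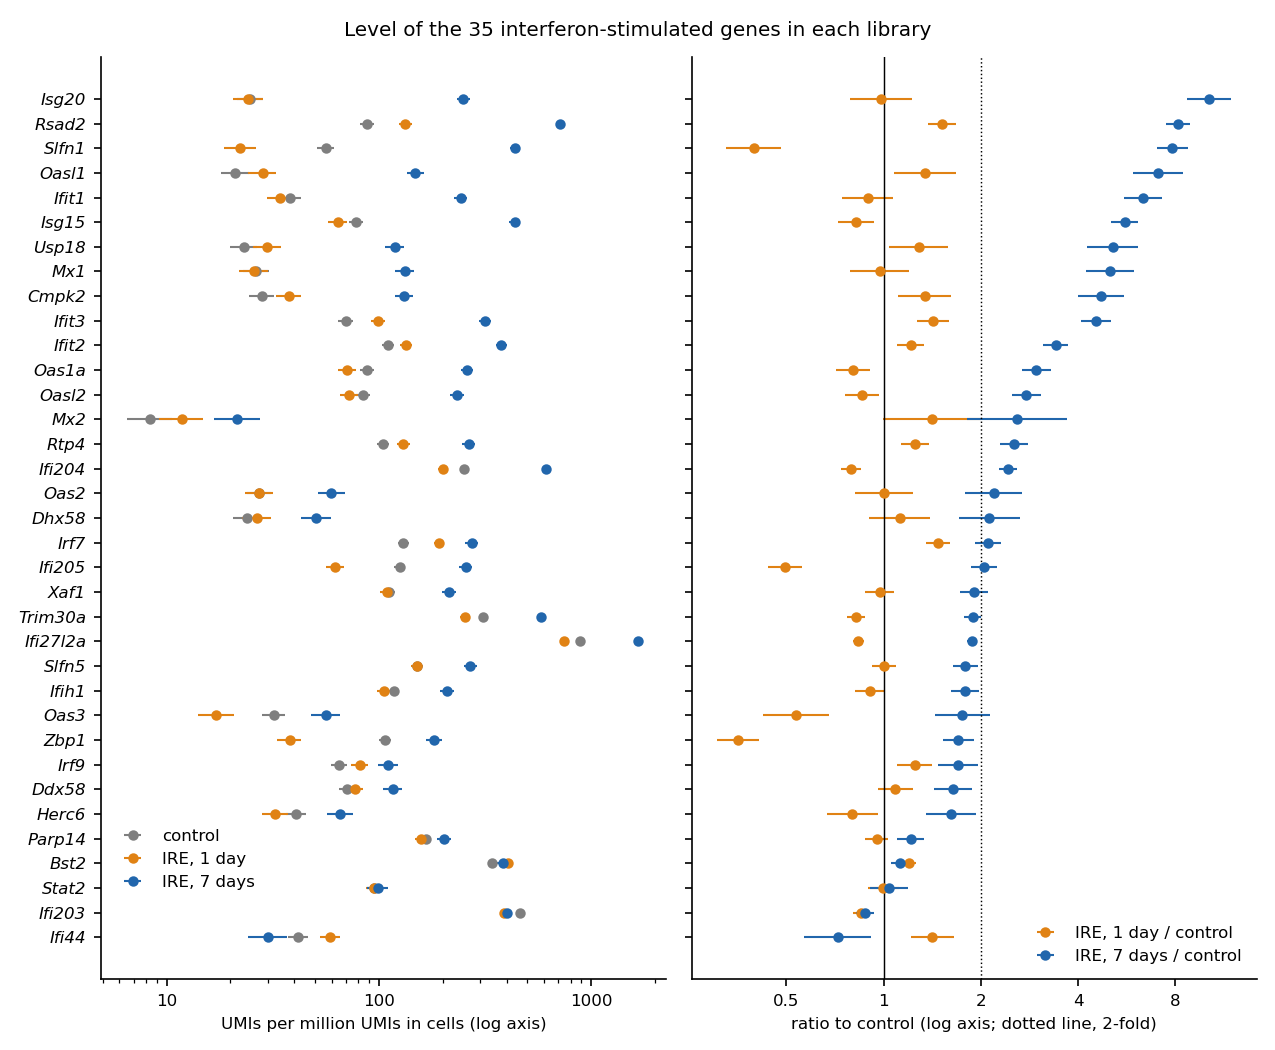
Left, level of each of the 35 genes in UPM on a log axis, 1 point per library with its 95% counting interval; right, ratio of each IRE library to control on a log axis, with a dotted line at 2-fold. The 7-day ratios run from 0.722 (Ifi44) to 10.1 (Isg20), and the 1-day ratios from 0.355 (Zbp1) to 1.52 (Rsad2).

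The enzymes acting on nucleotides and RNA had the largest 7-day ratio of the role groups, 7.82 times control for their sum. Isg20, an exonuclease that degrades RNA, was at 24.7, 24.2 and 250.4 UPM in control, at 1 day and at 7 days p.i. Over all cells its 7-day level was 10.1 (8.66 to 11.9) times control. Within neutrophils it was 5.62 (3.60 to 9.30) times and within monocytes 4.26 (2.87 to 6.38) times. Within Kupffer cells it was 10.7 (3.86 to 27.95) times, from 8 and 13 UMIs. Neutrophils made up 4.95% of control and 49.4% of 7-day cells, and their part in the Isg20 level was not tested. Rsad2 (viperin), which makes a chain-terminating nucleotide, was at 87.8, 133 and 717, 8.16 (7.50 to 8.90) times control. Cmpk2, a mitochondrial nucleotide kinase, was at 28.1, 37.7 and 132, 4.70 (3.99 to 5.56) times control. Over all cells at 1 day Isg20 was within counting error of control, while Rsad2 and Cmpk2 were higher, at 1.52 and 1.34 times. Within Kupffer cells Rsad2 and Cmpk2 were at 1.04 (0.860 to 1.25) and 0.801 (0.566 to 1.13) times control. In sinusoidal endothelium the 2 genes were at 1.02 (0.818 to 1.28) and 1.09 (0.698 to 1.75) times. In C1q macrophages they were at 1.60 (0.981 to 2.52) and 3.19 (1.41 to 6.82) times. The part of class shares in the all-cell ratios was not tested.

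The IFIT proteins bind foreign RNA and hinder its translation, and all 3 genes were past 2-fold at 7 days p.i. Ifit1 was at 38.3, 34.2 and 243 UPM in the 3 libraries, 6.34 (5.54 to 7.27) times control at 7 days. Ifit2 was at 111, 134 and 378, 3.41 (3.12 to 3.73) times control, and Ifit3 at 69.8, 99.2 and 316, 4.54 (4.08 to 5.04) times. Over all cells Ifit2 and Ifit3 also stood above control at 1 day, by 1.21 and 1.42 times, and Ifit1 did not. Within Kupffer cells Ifit2 and Ifit3 were then at 0.914 (0.780 to 1.07) and 1.01 (0.830 to 1.22) times control. In sinusoidal endothelium they were at 0.823 (0.654 to 1.04) and 1.16 (0.868 to 1.58) times. In C1q macrophages they were at 1.74 (1.14 to 2.58) and 1.76 (1.003 to 2.95) times, and in monocytes at 2.11 (1.06 to 3.86) and 1.92 (0.594 to 4.81) times. Isg15, a ubiquitin-like protein that is attached to other proteins, was at 78.1, 64.0 and 436, 5.58 (5.07 to 6.14) times control at 7 days. Usp18, the protease that removes Isg15 and damps receptor signalling, was at 23.2, 29.8 and 119, 5.11 (4.27 to 6.13) times control. Herc6, a ligase that attaches Isg15 in the mouse, was at 40.7, 32.6 and 65.7, 1.62 (1.35 to 1.93) times control, so the ligase differed less than the modifier and its protease.

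The OAS enzymes make oligoadenylates that activate RNase L. Oasl1, a relative without this activity that restrains Irf7 translation, was at 21.1, 28.3 and 149 UPM, 7.05 (5.90 to 8.47) times control at 7 days p.i. Oas1a was at 87.7, 70.7 and 261, 2.97 (2.68 to 3.29) times, and Oasl2 at 84.4, 72.5 and 233, 2.77 (2.49 to 3.08) times. Oasl1 lay apart from the rest of its family at 7 days. Oas2 was at 27.3, 27.3 and 59.8, 2.19 (1.79 to 2.68) times, and Oas3 at 32.1, 17.2 and 56.2, 1.75 (1.44 to 2.13) times. Of the Mx genes, which belong to the dynamin-like GTPase family, Mx1 was at 26.5, 25.7 and 132, 5.00 (4.23 to 5.94) times control. Mx2 was at 8.36, 11.8 and 21.6, from 67, 72 and 66 UMIs, the fewest of any member, and its ratio of 2.58 (1.81 to 3.68) is correspondingly imprecise. Many members, among them the Ifit, Oas, Slfn, Ifi203 to Ifi205 and Trim30a genes, have close copies, and how reads shared between copies were counted is not given in the sources used here.

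The Schlafen genes took separate courses. Slfn1, known for restraining T cell growth, was at 56.2, 22.3 and 439 UPM, 0.397 (0.325 to 0.481) times control at 1 day and 7.82 (7.02 to 8.72) times at 7 days p.i. Slfn5 was at 151, 152 and 270.4, 1.00 times control at 1 day and 1.79 (1.64 to 1.96) times at 7 days. Over all cells Slfn1 was therefore lowest at 1 day and highest at 7 days, and Slfn5 was level at 1 day. Within classes Slfn1 was at 0.774 (0.524 to 1.14) times control in Kupffer cells and 0.982 (0.447 to 1.94) times in neutrophils at 1 day, and at 3.48 (2.66 to 4.64) times in neutrophils, 2.00 (1.57 to 2.54) times in monocytes, 5.03 (2.75 to 8.74) times in Kupffer cells and 6.53 (2.61 to 14.4) times in C1q macrophages at 7 days. Neutrophils made up 4.95%, 1.19% and 49.4% of cells in the 3 libraries, and their part in the Slfn1 level was not tested.

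The transcription factors of the pathway had smaller ratios than most genes above. Irf7, which amplifies interferon production, was at 131, 192 and 274 UPM, 1.47 (1.35 to 1.60) times control at 1 day and 2.10 (1.91 to 2.30) times at 7 days p.i. Irf9 was at 65.0, 81.2 and 110.5, 1.70 (1.48 to 1.95) times at 7 days. Stat2 was at 94.96, 94.6 and 98.7, 1.04 (0.907 to 1.19) times control at 7 days, or 0.862 (0.752 to 0.987) times without mitochondrial transcripts, so its direction turned with the total used. Ifih1, Ddx58 and Dhx58 encode receptors that detect RNA in the cytoplasm. Ifih1 was at 117, 106 and 209.6, 1.79 (1.61 to 1.98) times control, Ddx58 at 70.9, 77.1 and 116, 1.64 (1.43 to 1.88) times, and Dhx58 at 23.8, 26.7 and 50.7, 2.13 (1.71 to 2.64) times. The 3 receptors were higher at 7 days and near control at 1 day. Zbp1, a sensor of Z-form nucleic acids that can trigger necroptosis, was at 107, 37.98 and 182, 0.355 (0.306 to 0.411) times control at 1 day, the lowest member ratio, and 1.70 (1.53 to 1.90) times at 7 days.

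Ifi203, Ifi204 and Ifi205 belong to a family of interferon-induced DNA-binding proteins and differed in course. Ifi204 was at 253, 201 and 614 UPM, 2.43 (2.28 to 2.59) times control at 7 days p.i. Ifi205 was at 126, 62.2 and 257, 0.496 (0.439 to 0.558) times at 1 day and 2.04 (1.86 to 2.25) times at 7 days. Ifi203 was at 460.1, 390.3 and 403, 0.875 (0.820 to 0.934) times at 7 days, and was lower than control in both IRE libraries.

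Ifi27l2a, a small membrane protein gene with the most UMIs of the set, was at 889, 743 and 1664 UPM, 1.87 (1.81 to 1.94) times control at 7 days p.i. Rtp4, a chaperone of receptor transport, was at 105, 131 and 265, 2.54 (2.30 to 2.80) times, and Trim30a, a TRIM family gene, at 309, 255 and 584, 1.89 (1.78 to 2.01) times. All 3 were highest at 7 days, and over all cells Rtp4 was the one also above control at 1 day (1.25 times). Within Kupffer cells Rtp4 was then at 0.952 (0.811 to 1.12) times and in sinusoidal endothelium at 1.12 (0.867 to 1.45) times. Xaf1, an antagonist of an apoptosis inhibitor, was at 112, 109 and 213, 1.91 (1.72 to 2.11) times control, and Parp14, an ADP-ribosyltransferase, at 167, 159 and 203, 1.21 (1.10 to 1.34) times. Bst2 (tetherin), which holds budding virions on the cell surface, was at 339.9, 406 and 383, 1.13 (1.05 to 1.21) times control, or 0.934 (0.872 to 1.00) times without mitochondrial transcripts, an interval that included 1. Ifi44 was at 41.7, 58.9 and 30.1, 1.41 (1.22 to 1.65) times control at 1 day and 0.722 (0.567 to 0.911) times at 7 days. Over all cells Ifi44 was thus highest at 1 day and lowest at 7 days. Within monocytes it was 2.504 (1.22 to 5.09) times control at 7 days, from 17 and 19 UMIs, and within neutrophils 1.03 (0.489 to 2.44) times. Without mitochondrial transcripts the monocyte ratio was 1.98 (0.966 to 4.02), an interval that included 1. With all transcripts Ifi44 was at 1.14 (0.302 to 3.08) times in Kupffer cells and 0.694 times in C1q macrophages.

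At 1 day p.i. 0 of 35 members were at least 2-fold higher than control, against 13.6% of all genes. Zbp1, Slfn1 and Ifi205, 3 of 35, were at least 2-fold lower, against 7.14% of all genes. Without mitochondrial transcripts Ifi205 was at 0.504 times control, which left 2 members lower. The median log2 ratio was -0.03 over members and 0.05 over all genes. The members highest against control over all cells were Rsad2 (1.52 times), Irf7 (1.47), Ifit3 (1.42), Ifi44 (1.41) and Mx2 (1.41, with an interval that included 1).

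Cells were placed in classes by 6 markers a class. A cell joined the class of which it had the most distinct markers, without a tie, and at least 2. As an exception, cells with at least 2 Kupffer markers could not join the C1q macrophage class. Their Kupffer count was raised to their C1q count where that was higher. Such a cell could thus be placed with Kupffer cells while having more C1q markers. No member was a marker, and the classes described had at least 50 cells in a library, each with all its own markers detected. In control the summed member level was highest in monocytes, at 6834 (6657 to 7014; 1291 cells), and in Kupffer cells, the resident liver macrophages, at 6047 (5929 to 6166; 1577 cells). Sinusoidal endothelium was at 4734 (4572 to 4902; 1060 cells), neutrophils at 4456 (4242 to 4677; 514 cells) and plasmacytoid dendritic cells (pDCs) at 4023 (3486 to 4619.6; 94 cells). Monocytes and Kupffer cells lay apart from each other and from the rest, while endothelium, neutrophils and pDCs overlapped with their neighbours in this order. Macrophages with C1q markers that were not placed with Kupffer cells were at 3295, type 1 conventional dendritic cells (cDC1s) at 3293, B cells at 2961, T cells at 2685, mesenchyme at 2558 and NK cells at 1800. Of these, each class overlapped with the next except that NK cells lay below mesenchyme. Hepatocytes, with enough cells at 1 day alone, had the lowest level of all, 1192 (972 to 1447; 94 cells). Cells left without a class made up 28.3%, 31.8% and 23.5% of the 3 libraries and held members at 3699.8, 3492 and 10551.

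**Figure D2:**
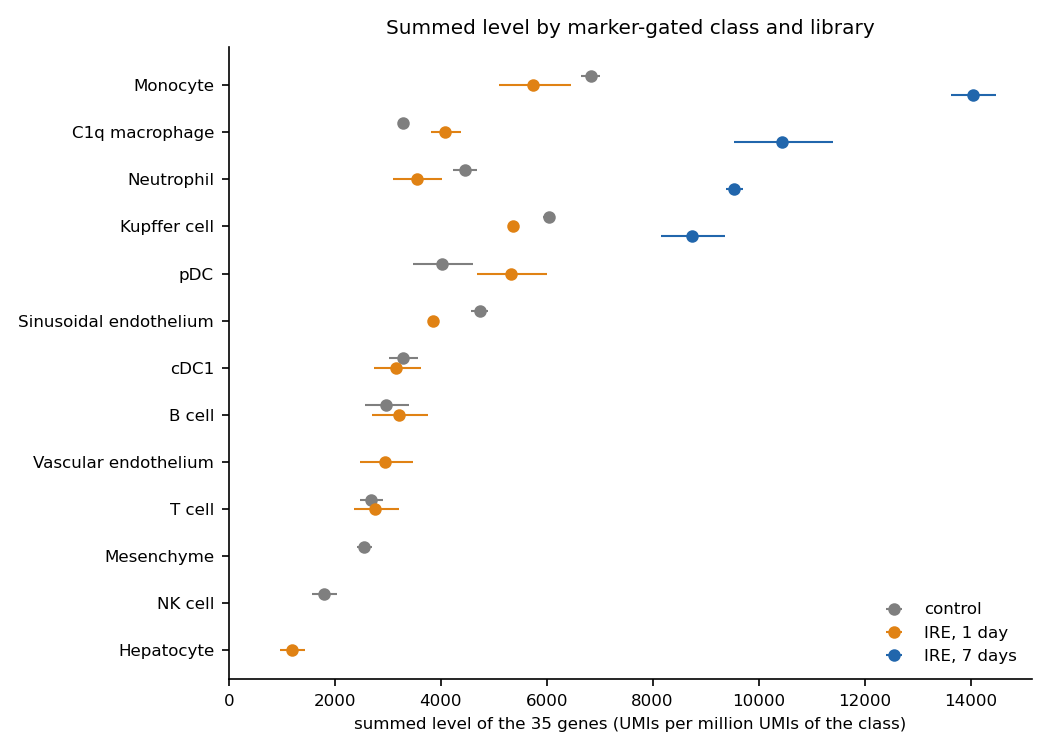
Summed level of the 35 genes in UPM for each class described, with 95% counting intervals, in grey for control, orange for 1 day and blue for 7 days p.i. The 7-day classes lie between 8748 (Kupffer cells) and 14052 (monocytes), above every control and 1-day class.

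Single members had their own order of classes in control. Monocytes held the highest level of 12 members, Kupffer cells of 9, cDC1s of 2, and neutrophils, sinusoidal endothelium, B cells and pDCs of 3 each. The highest class was apart from the next for 5 members only, and the intervals of the others overlapped. The share of all genes with a class so apart is not given, here or at 7 days p.i., so such counts are descriptions. Isg15 was at 154 UPM in monocytes and 99.4 in endothelium, Zbp1 at 233 in monocytes and 139 in Kupffer cells, and Ifi27l2a at 1779.8 and 1346 in the same classes. Ifi205 was at 973 in cDC1s and 229 in monocytes. Bst2, a known surface marker of pDCs, was at 1321 in pDCs and 791 in endothelium. Of the members that overlapped, Ifi44 was at 151 in endothelium and 40.0 in pDCs, the latter from 2 UMIs, and Irf7 at 297 in Kupffer cells and 160.1 in pDCs.

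At 7 days p.i. the summed level was higher than control in all 4 classes with enough cells in both libraries. Monocytes were at 14052 (13628 to 14484; 483 cells), 2.06 (1.98 to 2.14) times control, and neutrophils at 9545 (9384 to 9707; 2778 cells), 2.14 (2.03 to 2.26) times. Kupffer cells were at 8748 (8162 to 9364; 119 cells), 1.45 (1.35 to 1.55) times control, and C1q macrophages at 10438 (9534 to 11406; 71 cells), 3.17 (2.88 to 3.48) times. The Kupffer ratio was the smallest and the C1q macrophage ratio the largest, with intervals apart from those of the other classes. The contrast rests on the rule that kept cells with Kupffer markers out of the C1q class, and its size without that rule was not tested. Without mitochondrial and hepatocyte genes in the total the ratios were 1.64 in neutrophils, 1.62 in monocytes, 1.27 in Kupffer cells and 2.71 in C1q macrophages.

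Classes were less separate at 7 days p.i., and neutrophil markers were higher alongside the members. At least 2 markers of a second class were found in 55.0% of 7-day neutrophils, 77.0% of monocytes, 85.7% of Kupffer cells and 80.3% of C1q macrophages. The 6 neutrophil markers together stood at 14446 UPM in 7-day monocytes against 2087 in control, at 11146 against 1215 in Kupffer cells and at 10097 against 1242 in C1q macrophages. In neutrophils themselves they stood at 71717 against 52227. Their part in the member levels was not tested. With cells of a second class left out, the ratio was 2.19 in neutrophils and 2.04 in monocytes, and the macrophage classes fell under 50 cells. With S100a8, S100a9, Ly6c2 and Plac8 removed from the markers it was 1.80 and 1.68. The 7-day summed levels were then 11183 in monocytes, 10538 in C1q macrophages, 9926 in neutrophils and 9026 in Kupffer cells, so monocytes stood less far above the others.

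Counted gene by gene, 18 of 35 members were at least 2-fold higher in 7-day neutrophils, against 18.9% of all genes. In monocytes 19 of 34 were, against 13.3%, in Kupffer cells 12 of 34, against 11.1%, and in C1q macrophages 24 of 33, against 18.2%. Without mitochondrial transcripts the counts were 14, 12, 8 and 23, against 10.7%, 6.95%, 8.06% and 12.95%. Ifit1, Ifit2, Ifit3, Isg15, Rsad2, Mx1, Oas1a, Oasl1 and Slfn1 were past 2-fold in each of the 4 classes with all transcripts counted, 9 of 33 members against 2.17% of all genes with enough UMIs in the 4. Without mitochondrial transcripts this held for 4 of them, Ifit1, Isg15, Mx1 and Rsad2, against 1.23% of all genes, and the intervals of Ifit1 (2.27, 0.990 to 4.59) and Mx1 (2.62, 0.994 to 5.91) in Kupffer cells then included 1. Among the narrow cases with all transcripts were Slfn1 in monocytes, at 2.00 (1.57 to 2.54) times, and Oasl1 in Kupffer cells, at 2.09 (0.922 to 4.19) times, an interval that included 1. Monocytes held the highest 7-day level of 20 members, C1q macrophages of 7, Kupffer cells of 4 and neutrophils of 4, namely Isg20, Slfn1, Irf9 and Mx2. The highest class lay apart from the next for Ifit1, Ifit3, Oasl1, Ifih1 and Ifi205 in monocytes and for Slfn1 in neutrophils, at 542 against 414 in monocytes.

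Rsad2 was at 65.0 UPM in control monocytes and 1017 in 7-day monocytes, 15.6 (11.7 to 21.3) times, and at 183 and 718 in neutrophils, 3.92 (3.06 to 5.10) times. Oasl1 was at 12.0 and 239 in monocytes, 19.9 (10.2 to 43.2) times, and at 30.1 and 145 in neutrophils, 4.84 (2.65 to 9.85) times. Ifit3 was at 54.2 and 455 in monocytes, 8.39 (5.95 to 12.0) times, and at 90.1 and 315 in neutrophils, 3.49 (2.45 to 5.14) times. For these genes 7-day monocytes lay above 7-day neutrophils, and the ratio intervals did not overlap. Control monocytes lay below control neutrophils for Rsad2, while the control intervals overlapped for Oasl1 and Ifit3. Isg15 had like ratios in both, 4.53 (3.61 to 5.69) in monocytes and 4.86 (3.41 to 7.18) in neutrophils. Usp18 and Mx1 had the largest neutrophil ratios, 8.53 (3.58 to 26.6) and 7.70 (3.23 to 24.1), each over 5 control UMIs. In C1q macrophages Ifi27l2a was at 678 and 2305, 3.40 (2.76 to 4.15) times, and Bst2 at 256 and 833, 3.25 (2.27 to 4.54) times. In monocytes Ifi27l2a was at 1.27 (1.16 to 1.39) times, an interval apart from that in C1q macrophages, and Bst2 at 1.98 (1.59 to 2.48) times, an overlapping one. Without mitochondrial transcripts Ifi27l2a was at 1.005 (0.916 to 1.10) times in monocytes, an interval that included 1. In C1q macrophages it was then at 2.91 (2.36 to 3.56) times. Ifi203 was within counting error of control in the 4 classes, at 0.845 to 0.974 times. Without mitochondrial transcripts it was 0.648 (0.532 to 0.794) times in neutrophils and 0.696 (0.588 to 0.820) times in monocytes, both below 1.

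**Figure D3:**
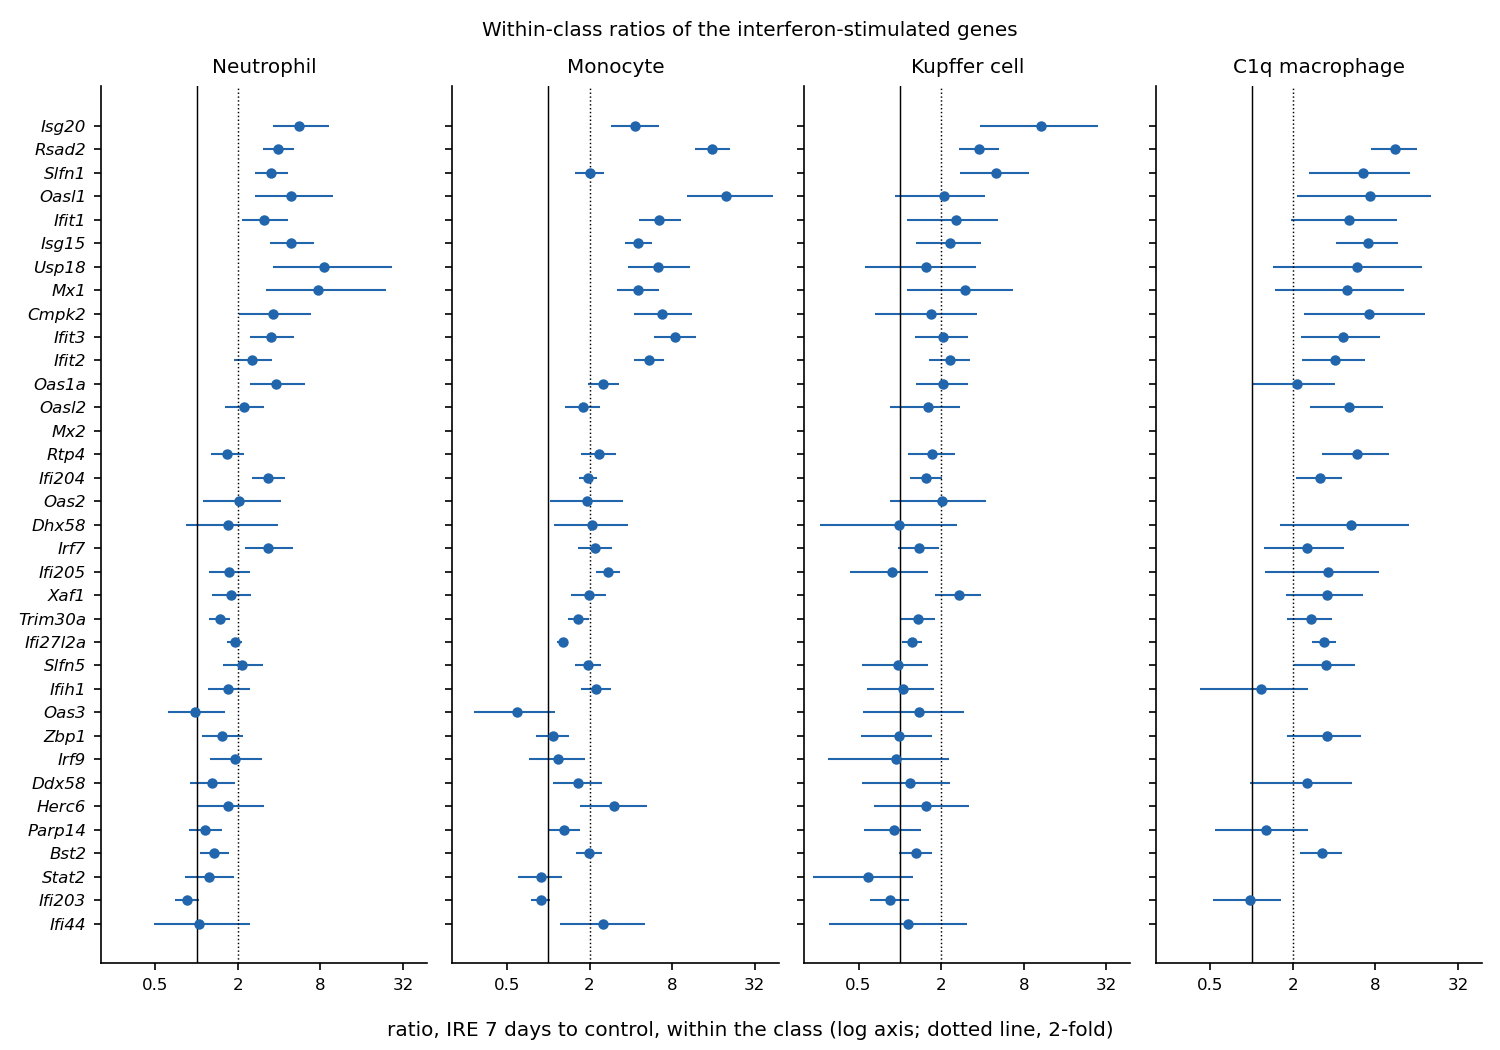
Ratio of the 7-day to the control level of each member within 4 classes, on a log axis, with 95% counting intervals and a dotted line at 2-fold; no point is drawn where a library had 3 UMIs or fewer or both together had under 20. Oasl1 and Rsad2 reach 19.9 and 15.6 in monocytes, and Ifi203 stays below 1 in each class.

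At 1 day p.i. classes lay on different sides of control. Kupffer cells were at 5369 (5266 to 5473; 2571 cells), 0.888 (0.864 to 0.913) times control, and sinusoidal endothelium at 3854 (3759 to 3951; 2502 cells), 0.814 (0.780 to 0.850) times. C1q macrophages were at 4088 (3809 to 4382; 360 cells), 1.24 (1.15 to 1.34) times control, and pDCs at 5318 (4691 to 6005; 91 cells), 1.32 (1.10 to 1.60) times. Neutrophils were at 3547 (3106 to 4034; 110 cells), 0.796 (0.691 to 0.914) times, and monocytes at 5749 (5092 to 6468; 81 cells), 0.841 (0.743 to 0.949) times. C1q macrophages and pDCs were thus above control and the other 4 of these classes below it, while T cells, B cells and cDC1s had intervals that included 1. With cells of a second class left out the pDC ratio was 1.14 (0.886 to 1.45) and the neutrophil ratio 0.866 (0.717 to 1.04), and without Ifi27l2a and Ifi203 the monocyte ratio was 0.965 (0.833 to 1.11), all with intervals that included 1. In Kupffer cells 0 of 35 members were at least 2-fold higher, against 14.4% of genes, and 1, Zbp1, was lower, against 4.86%, and 0 were without mitochondrial transcripts. In endothelium Dhx58, Mx1 and Oasl1, 3 of 34, were higher, against 13.8% of genes, with an interval for Oasl1 that included 1, and 1, Zbp1, was lower, against 4.01%.

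Bst2 in sinusoidal endothelium was at 791 UPM in control and 547 at 1 day, 0.692 (0.620 to 0.772) times. Ifi44 in the same cells was at 151 and 81.4, 0.538 (0.412 to 0.704) times, although over all cells it was higher at 1 day. Irf7 went the other way there, from 75.7 to 142, 1.87 (1.38 to 2.59) times, and was level in Kupffer cells at 0.972 (0.859 to 1.10) times. Endothelium thus held members on both sides of control at 1 day. Zbp1 was at 139 and 65.7 in Kupffer cells, 0.474 (0.378 to 0.591) times, and at 54.9 and 19.9 in endothelium, 0.362 (0.218 to 0.598) times. Ifi205 in cDC1s was at 973 and 690.5, 0.710 (0.499 to 0.990) times.

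Single cells were compared after each was thinned to 300 UMIs, which left out 209, 298 and 545 shallower cells. At least 2 distinct members were found in 33.9% (33.0 to 34.8) of control cells, 31.9% (30.9 to 32.9) at 1 day and 54.9% (53.6 to 56.3) at 7 days p.i., and before thinning in 60.3%, 56.3% and 70.8%. Barcodes with under 200 genes also held more of these transcripts at 7 days, and no class that should lack all members was at hand as a background for these shares, so they are shares of barcodes. Of neutrophils 34.1% (29.9 to 38.4) had at least 2 in control and 55.2% (53.2 to 57.1) at 7 days, and of monocytes 53.0% (50.2 to 55.8) and 64.9% (60.2 to 69.4). C1q macrophages had the widest gap, 24.5% (22.3 to 26.8) and 62.7% (50.0 to 74.2). In Kupffer cells the shares were 51.7% (49.2 to 54.3) in control and 62.0% (52.2 to 71.2) at 7 days, with intervals that overlapped. The lowest shares were those of control NK cells, 7.85% (4.46 to 12.6), and 1-day hepatocytes, 6.45% (2.40 to 13.5).

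The variance of member UMIs per cell, divided by their mean, was higher in 7-day than in control neutrophils, monocytes and C1q macrophages. This ratio can rise with the mean alone, so it does not show wider variation relative to the mean. The mean number of member UMIs per thinned cell was 1.40 in control and 2.87 in 7-day neutrophils, and 2.14 and 4.07 in monocytes. The variance of member UMIs per thinned cell was 3.94 times the mean in 7-day neutrophils and 1.78 times in control, and 4.80 and 1.59 times in monocytes. In C1q macrophages it was 3.30 times a mean of 3.27 at 7 days and 1.81 times a mean of 1.11 in control. No member UMI was found in 18.5% of 7-day and 32.9% of control neutrophils, and the 10% of cells with the most held 36.9% and 33.6% of member UMIs. In C1q macrophages the top share was 32.4% at 7 days and 39.8% in control.

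At 7 days p.i. members tended to occur in the same cells. The 296 7-day neutrophils with an Ifit3 UMI had the other members at 20764 UPM, and the 2482 without one at 7704, a ratio of 2.70. Over the 35 members this ratio had a median of 1.95 in 7-day neutrophils, against 0.959 over 4820 other genes. It ran from 1.16 for Slfn1 to 2.81 for Usp18 and 3.22 for Mx2. In the other classes the members found in under 30 cells were left out. The median was 2.19 in 7-day monocytes, against 0.951 over other genes. In control it was 1.17 in Kupffer cells, 1.25 in monocytes and 1.20 in sinusoidal endothelium, against 0.882, 0.958 and 1.02. At 1 day it was 1.34 in Kupffer cells and 1.09 in endothelium, against 0.908 and 0.852, and in 1-day endothelium 10 of 30 members were below 1, among them Usp18 (0.543), Ifit1 (0.628) and Stat2 (0.812). Slfn1 also had the lowest ratio in 7-day monocytes, 1.16, so in both classes its transcripts went least with the rest of the set.

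**Figure D4:**
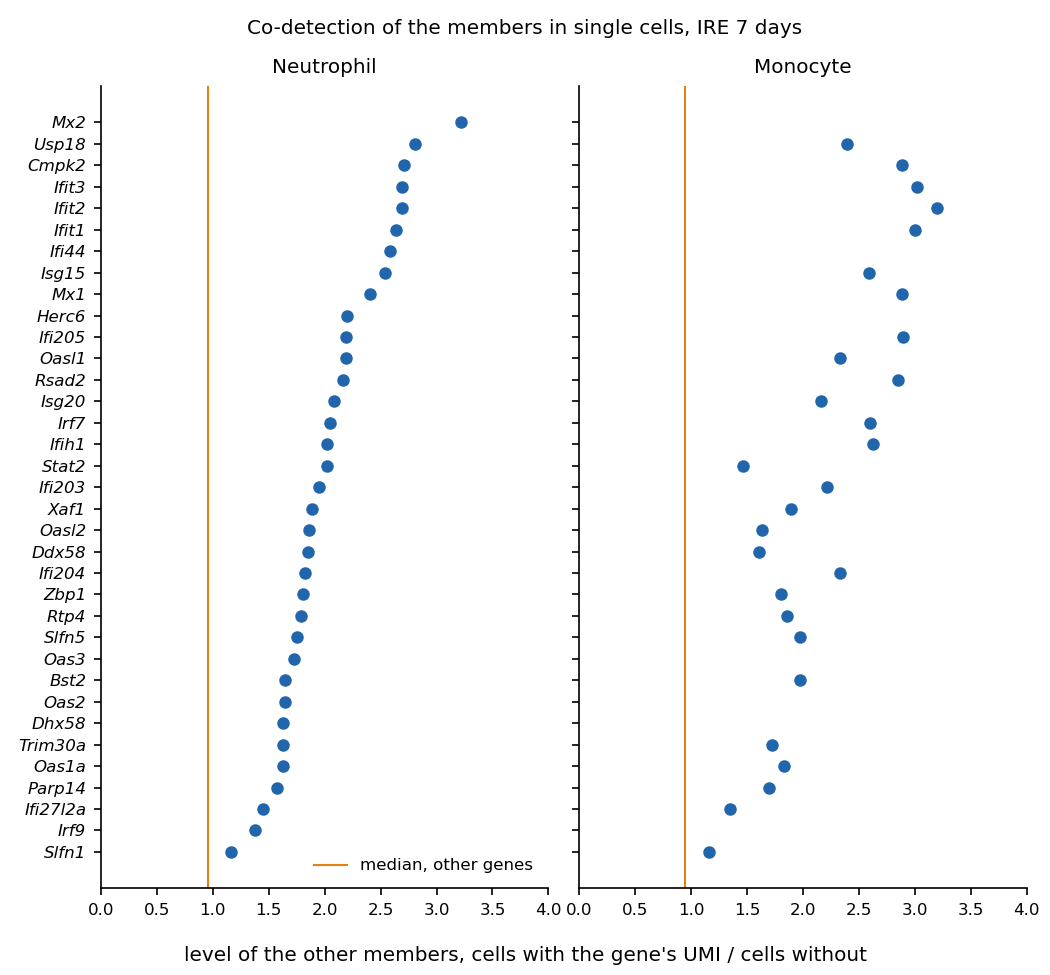
For each member in neutrophils and monocytes at 7 days p.i., the level of the other members in cells with at least 1 UMI of that gene divided by their level in cells without it; the orange line is the median over other genes, and members found in under 30 cells have no point. In neutrophils the points run from 1.16 (Slfn1) to 3.22 (Mx2), to the right of the line at 0.959.

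The rest of the pathway was read from lists of ligands, receptors, sensors and other induced genes. Ifna2 and Ifnb1 had 0 UMIs over every control and 1-day barcode, read as up to 3 UMIs in a library, the floor used for 0. They had 2 UMIs each at 7 days p.i. All of these came from 1 cell in the neutrophil class with 720 UMIs, 8 of them from 5 members. Ifng was at 12.98, 5.57 and 10.5 UPM in the 3 libraries. Of 15 receptor and signalling genes with enough UMIs, 5 were at least 2-fold higher at 7 days and 0 lower, against 8.79% and 26.3% of all genes. Socs3 (4.03 times control) and Socs1 (2.73) encode feedback inhibitors, and Ifnar1 (2.24), Irf5 (2.16) and Il10rb (2.13) encode receptor chains and a transcription factor. Without mitochondrial transcripts Ifnar1 (1.86), Irf5 (1.79) and Il10rb (1.76) were under 2-fold, which left 2 of 15. Of 7 upstream sensors 0 were higher and 1 was lower, against the same shares of all genes, namely Tlr3, an endosomal RNA sensor, at 15.3, 18.3 and 4.25, 0.277 (0.143 to 0.491) times.

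Genes typical of the interferon gamma response included some of the lowest ratios in these lists. Of 14 such genes, 5 were at least 2-fold lower at 7 days p.i. and 1 higher, against 26.3% lower and 8.79% higher of all genes, so the counts lie near the shares of all genes. The median log2 ratio over all genes was -0.29, and the 14 genes had a median ratio of 0.644. Cxcl9, a chemokine for T cells, was at 272, 143 and 24.5 UPM, 0.0901 (0.0706 to 0.113) times control. Iigp1 was at 277, 249.5 and 59.5, 0.214 (0.183 to 0.250) times, and Gbp4 at 105, 72.2 and 30.7, 0.294 (0.235 to 0.364) times, both encoding GTPases of host defence. Ciita, which switches on MHC class II genes, was at 0.270 times and Gbp3, another such GTPase, at 0.476. Cxcl10, which type I interferon also induces, was the higher one, at 76.6, 69.1 and 318, 4.16 (3.75 to 4.61) times. At 1 day 2 of the 14 were lower and 0 higher, against 7.14% and 13.6% of all genes, with a median ratio of 0.571. Of 18 other induced genes, 3 were higher at 7 days and 0 lower, against 8.79% and 26.3% of all genes. These were Ifitm1 at 102, 26.4 and 1172, 11.5 (10.6 to 12.4) times control, Ifitm3 (2.21 times) and Ifitm2 (2.08 times), which encode membrane proteins that hinder viral entry. Without mitochondrial transcripts Ifitm3 (1.83) and Ifitm2 (1.73) were under 2-fold.

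**Figure D5:**
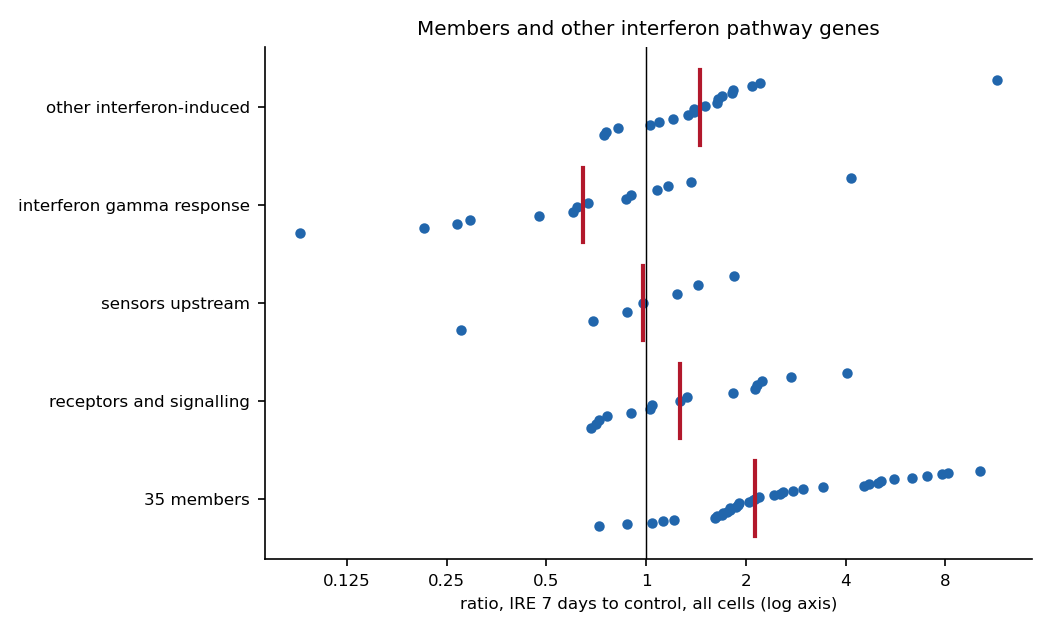
Ratio of the 7-day to the control level over all cells, on a log axis, for the 35 members and for other interferon pathway genes with at least 20 UMIs; each point is a gene and the red bar is the group's median. The members reach 10.1, and the interferon gamma group has a median of 0.644 with Cxcl9 lowest at 0.0901.

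Across 21 combinations of class and library with at least 50 cells and 50000 UMIs, the genes outside these lists most like the summed member level were Sdcbp (Pearson's r 0.888), Pirb (0.887) and Nampt (0.875). Ms4a8a, Sppl2a, B430306N03Rik, Gm7676, Pitpna, Dok3 and Ms4a6d followed, down to 0.868, among 6765 genes. Members themselves ran from 0.411 for Mx2 to 0.944 for Ifih1, with a median of 0.767, each being part of the sum. Combinations from 1 library share its depth and free RNA, so these values are descriptions.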

How the data were processed

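Each library came as a deposited table of UMI counts per gene and cell barcode with a summary per barcode. The authors made these counts from Drop-seq reads. The submitters' processing notes name STAR 2.5.2a and the build hg19, although the gene symbols are of mouse, and the counting step is not given in the sources used here. The members, lists and the 2-fold limit were chosen with earlier results of these data known. Barcodes with at least 200 genes were kept, and counts were summed by library or class and scaled to 1000000 UMIs (UPM). Doublets were kept and no caller was run. Some results of 1 cell class and 1 gene are not reported here. Cells with under 2 markers of every class were hepatocytes at 10% hepatocyte UMIs, and Chil3 and Fcmr were read under older symbols. All 35 members reached 100 UMIs over the libraries, the minimum for giving a member's own values. For ratios over all genes a count of 0 was set to 3. Intervals were exact Poisson for levels, conditional binomial for ratios and Clopper-Pearson for shares (Python 3.11.15, scipy 1.17.1). Likeness used log2(UPM + 10). The ratio step was tested on simulated data. Alternatives changed the cells kept, total, markers, thinning and members summed.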

Additional observations from a re-analysis of the deposited data

Results flagged for a closer look

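Barcodes with under 200 genes, which are not counted as cells, also carried member transcripts. Their summed level was 2916 UMIs per 1000000 (UPM) in control, 3256 at 1 day and 8975 at 7 days p.i., 1.117 and 3.078 times control. Neutrophil markers took 0.965%, 0.0784% and 9.61% of the UMIs in these barcodes, and their part in the member level was not tested.

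At 1 day p.i. the cell classes lay on opposite sides of control. The summed member level was 1.24 times control in C1q macrophages and 1.322 times in pDCs, against 0.7962 times in neutrophils, 0.8413 in monocytes, 0.8879 in Kupffer cells and 0.8141 in sinusoidal endothelium. With 1 library per group the differences between classes were not tested.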

How the results depend on the processing

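The summed 7-day ratio of 2.25 stayed above 1 under all alternatives run. It was 2.34 over every barcode, 2.18 over cells with at most 20% mitochondrial UMIs, 1.87 without mitochondrial genes, 1.87 without mitochondrial and hepatocyte genes, 2.15 as a mean over cells, 2.57 without Ifi27l2a and Ifi203, and 2.00 with 4 classes weighted by their control share. Between 16 and 21 members were at least 2-fold higher. The 1-day ratio of 0.941 was 0.959 with at least 300 genes per cell, 0.986 with at most 20% mitochondrial UMIs, 0.956 without mitochondrial genes, 0.994 without mitochondrial and hepatocyte genes, 0.925 as a mean over cells and 0.985 without Ifi27l2a and Ifi203, with intervals that included 1 for at most 20% mitochondrial UMIs, without mitochondrial and hepatocyte genes and without Ifi27l2a and Ifi203. In the settings where members were counted, 0 were 2-fold higher at 1 day. Leaving out barcodes shared by libraries, an alternative chosen after seeing the data, gave 0.958 at 1 day and 2.25 at 7 days. The cause of these shifts was not tested. Among class levels 49 alternatives stayed within counting error and 17 moved, none to the other side of 1 where the reported interval excluded 1. At 1 day the intervals came to include 1 for pDCs (1.14 (0.886 to 1.45)) and neutrophils (0.866 (0.717 to 1.04)) with second-class cells left out, and for monocytes (0.965 (0.833 to 1.11)) without Ifi27l2a and Ifi203. Shares of cells moved with thinning depth in 57 of 62 cases. No paired analysis was possible because each group has 1 library. With 1 library of 3 pooled livers per group, depth limits counting error alone, and variation between animals is unknown.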
